A study of Mus musculus with 6 samples.

Results

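Insulin receptor signalling and glucose transport were followed through 10 genes: Insr, Irs1, Irs2, Pik3r1, Akt1, Akt2, Foxo1, Tbc1d4, Slc2a4 and Slc2a1. Each gene was read from the probe set that carries its symbol alone in the array annotation, and 9 of the 10 genes had one, among 30702 named genes in all. Insr was not analysed here. The 9 measured genes had 1 such probe set each. Whole-transcript microarrays were run on total RNA of inguinal subcutaneous white fat from 6 male C57BL/6 mice aged 2 months, 1 array per mouse. The group labelled KO held 3 TFG f/f mice that also carried Adipoq-ERT2Cre, in which the promoter of the fat cell gene for adiponectin drives a Cre that tamoxifen activates. The group labelled WT held 3 TFG f/f mice without that Cre. All 6 mice carried the floxed alleles and received tamoxifen intraperitoneally for 5 days, and the RNA was analysed 2 weeks later. The groups therefore differ in the Cre transgene as well as in the target gene, and no mice with Cre and unfloxed alleles are among the samples. Values are log2 signals as deposited, and a difference of 1 is a doubling.

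Insulin binds its receptor on the fat cell, which phosphorylates the adaptor proteins IRS1 and IRS2. These recruit phosphoinositide 3-kinase, whose regulatory subunit p85 alpha is encoded by Pik3r1, and the lipid it makes activates the kinases AKT1 and AKT2. AKT2 is the form most tied to glucose uptake in fat and muscle. It phosphorylates AS160, the product of Tbc1d4, which releases vesicles carrying the glucose transporter GLUT4 (Slc2a4) to the cell surface, and it excludes the transcription factor FOXO1 from the nucleus. GLUT1, encoded by Slc2a1, carries glucose without insulin in most cell types.

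The upstream sequences of the 4 genes that were called higher are shown here, with that of Irs1 beside its relative Irs2. They are the 250 bases before an annotated start in RefSeq (GRCm38.p6), which held windows for 8 of the 10 genes. They are printed 5′ to 3′ on the strand of the gene, with matches to the searched letters in capitals. The searched letters, on both strands, were GTAAACA for FOXO factors, CACGTG for the E-box, GGGCGG for the GC box and CCAAT for the CCAAT box, and no 2 kinds overlapped in these windows. Irs2 lies at chr8:11008930-11009179 on the minus strand, Irs1 at chr1:82291440-82291689 on the minus strand, Foxo1 at chr3:52268087-52268336 on the plus strand, the first of 2 Pik3r1 windows at chr13:101768218-101768467 on the minus strand and the first of 4 Akt2 windows at chr7:27591302-27591551 on the plus strand.
Irs2: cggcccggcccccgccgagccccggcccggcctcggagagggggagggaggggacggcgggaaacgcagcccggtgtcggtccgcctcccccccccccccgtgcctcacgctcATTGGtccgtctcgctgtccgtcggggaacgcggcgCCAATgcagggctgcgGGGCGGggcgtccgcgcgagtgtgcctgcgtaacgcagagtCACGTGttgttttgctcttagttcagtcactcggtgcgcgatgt
Irs1: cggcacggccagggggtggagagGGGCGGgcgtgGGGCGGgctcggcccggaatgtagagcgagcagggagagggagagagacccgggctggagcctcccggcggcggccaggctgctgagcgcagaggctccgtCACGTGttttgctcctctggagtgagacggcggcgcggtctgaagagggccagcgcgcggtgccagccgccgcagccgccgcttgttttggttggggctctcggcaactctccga
Foxo1: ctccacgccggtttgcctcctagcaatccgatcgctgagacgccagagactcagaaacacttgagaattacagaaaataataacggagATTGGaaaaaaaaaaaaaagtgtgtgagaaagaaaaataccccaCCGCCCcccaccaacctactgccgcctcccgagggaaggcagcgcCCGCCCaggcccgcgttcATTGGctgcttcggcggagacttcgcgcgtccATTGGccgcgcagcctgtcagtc
Pik3r1: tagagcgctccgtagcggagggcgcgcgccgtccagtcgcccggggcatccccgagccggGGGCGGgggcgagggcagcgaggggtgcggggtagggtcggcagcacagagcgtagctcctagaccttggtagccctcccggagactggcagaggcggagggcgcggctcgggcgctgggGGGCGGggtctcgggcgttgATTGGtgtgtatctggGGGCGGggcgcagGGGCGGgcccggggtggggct
Akt2: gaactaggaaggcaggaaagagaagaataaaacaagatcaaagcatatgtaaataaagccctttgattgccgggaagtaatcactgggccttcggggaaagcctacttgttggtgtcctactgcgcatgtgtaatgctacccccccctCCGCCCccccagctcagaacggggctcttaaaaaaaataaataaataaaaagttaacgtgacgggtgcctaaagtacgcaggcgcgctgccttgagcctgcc

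The Irs2 and Irs1 windows each held 1 E-box, whose first base stood at -44 in Irs2 and at -115 in Irs1, counted back from the annotated start. The E-box letters occurred in 6.02% of 32851 such windows of all genes. The Irs2 window also held 2 CCAAT boxes and 1 GC box, while the Irs1 window held 2 GC boxes. The Foxo1 window held 3 CCAAT boxes and 2 GC boxes, the Pik3r1 window 4 GC boxes and 1 CCAAT box, and the Akt2 window 1 GC box. The other Pik3r1 window and the other Akt2 windows held 0 matches to any of the searched letters. GC boxes stood in 32.7% and CCAAT boxes in 33.8% of all windows. Members that were not called and are not printed held GC boxes too: 4 in 1 of 2 Akt1 windows, 2 in the Slc2a1 window and 1 in the Tbc1d4 window. The FOXO letters were in none of the 5 windows printed. They stood at -161 in 1 of 2 Akt1 windows, at chr12:112674885-112675134, and in 3.17% of all windows. A match of letters is a description of the sequence and not a binding site, and no match says only that these letters are not in that window.

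Before the comparison, the targeted gene and the arrays were examined. Tfg, which encodes a protein of endoplasmic reticulum exit sites, read 7.97, 7.94 and 7.91 on the WT-labelled arrays and 7.99, 8.21 and 8.03 on the KO-labelled arrays. With a change of 0.14 ± 0.11 (SE; limma, adjusted p = 0.345) Tfg did not read lower under the KO label, and the position of its probe set relative to the deleted part is unknown here. The median probe set read between 6.96 and 7.02 under the WT label and between 6.47 and 6.76 under the KO label, and over all probe sets the median change came to -0.37. A list of 13 housekeeping genes moved the other way, with a median change of 1.11 that ran from -0.28 for Tfrc to 2.66 for Sdha. These references for an array's level thus shifted in opposite directions. Directions below refer to the deposited values, and the values after centring on the housekeeping mean are given where they turn.

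Of the 9 measured genes, 4 rose on the KO-labelled arrays and 0 fell at an adjusted p under 0.05 in limma's test over 65956 probe sets. Irs2, Foxo1, Akt2 and Pik3r1 rose, by 6.02-fold, 3.21-fold, 2.28-fold and 1.86-fold. Their adjusted p ran from 0.0385 to 0.0477, all near the threshold, and the smallest of any probe set was 0.0305. Of all named genes 8.91% were called higher and 13.0% lower, and of all probe sets 5.32% and 15.6%. Among the 16690 named genes at or above the level of the median probe set, where 8 of the 9 genes lie, 15.9% were called higher and 14.4% lower. All 9 genes had a change above 0, as did 9144 of 30702 named genes and 12 of the 13 housekeeping genes. The median of the 9 was 0.62, against -0.27 over all named genes. In 8 of the 9 the KO-labelled values lay entirely above the WT-labelled values, which held for 18.5% of all named genes and 30.7% of the brighter ones. The reverse order, with all KO-labelled values below, held for 43.4% of named genes and for 0 of the 9. After centring on the housekeeping mean, only Irs2, Foxo1 and Akt2 kept a change above 0.

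**Figure D1:**
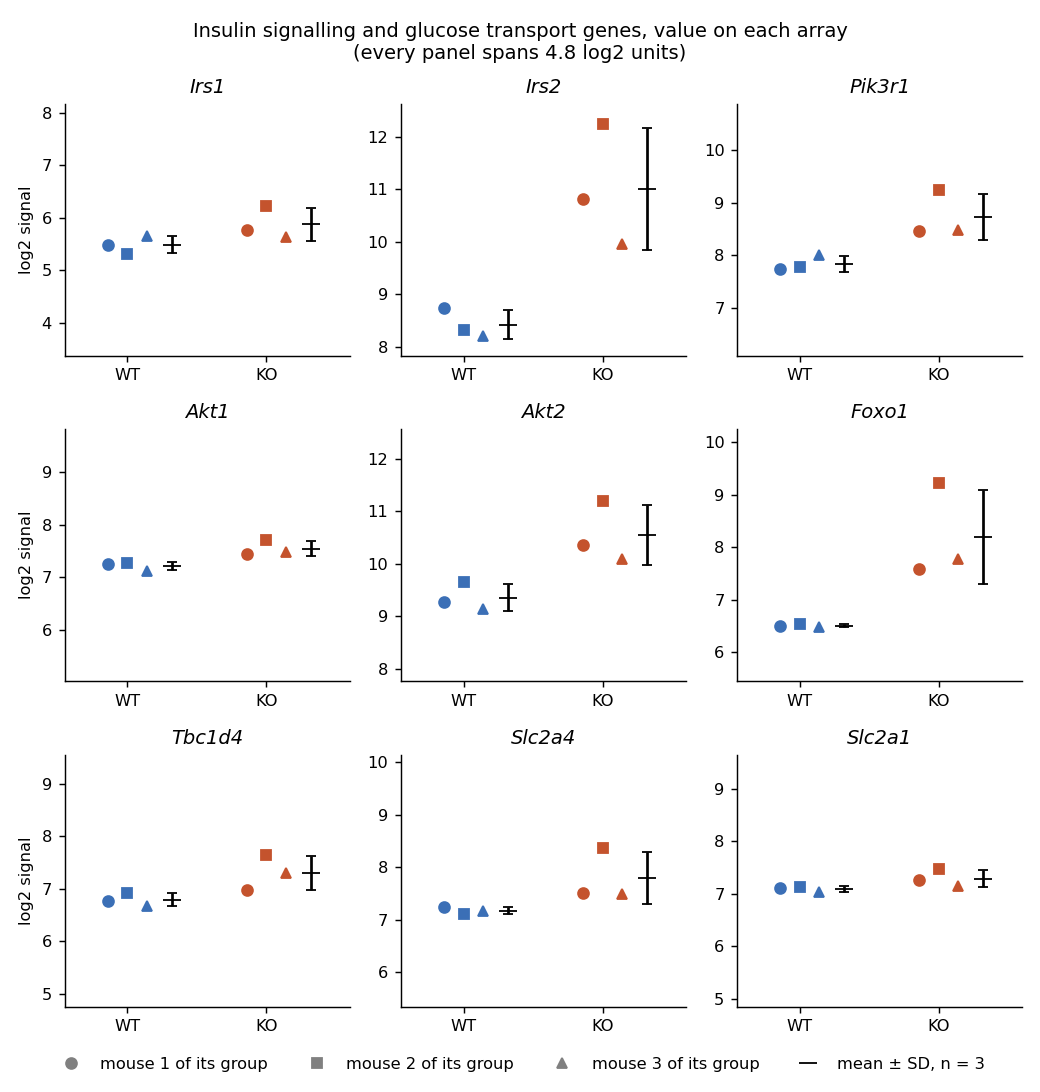
Log2 signal (y axis) of the 9 measured genes on each of the 3 WT-labelled and 3 KO-labelled arrays, with the mean and SD of each group and the same span on every y axis. KO 2 (square) is the highest of the 6 arrays for all 9 genes, and Irs1 is the gene whose groups overlap.

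Of the insulin receptor substrate genes, Irs2 rose and Irs1 did not pass. Irs2, the adaptor whose transcription insulin restrains in liver, read 8.73, 8.31 and 8.21 on the WT-labelled arrays and 10.82, 12.25 and 9.95 on the KO-labelled arrays. The groups did not overlap, and the gap of 1.22 between them was wider than the WT-labelled range of 0.52. The change was 2.59 ± 0.57 (SE; adjusted p = 0.0385), from 8.42 ± 0.28 (SD, n = 3) to 11.01 ± 1.16 (SD, n = 3), and it exceeded the change of 99.3% of named genes. Irs2 also passed after centring on the housekeeping mean, with a change of 1.56.

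Irs1, the other widely expressed insulin receptor substrate, read 5.49, 5.32 and 5.65 on WT-labelled arrays and 5.76, 6.23 and 5.63 on KO-labelled arrays. KO 3 lay inside the WT-labelled range. The change of 0.39 ± 0.19 (SE) did not pass (adjusted p = 0.154, 95% interval -0.08 to 0.86). All 6 values lay under the median probe set of their array, and without detection calls a change near background cannot be seen. Centred on the housekeeping mean, the change of Irs1 was -0.64.

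The regulatory subunit gene Pik3r1 read 7.74, 7.77 and 8.01 on WT-labelled arrays and 8.47, 9.24 and 8.49 on KO-labelled arrays. The groups were 0.46 apart, and KO 1 and KO 3 nearly coincided. Its change of 0.89 ± 0.24 (SE) passed narrowly (adjusted p = 0.0477). With quantile normalization the adjusted p was 0.0512, and centred on the housekeeping mean the change was -0.14.

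Of the AKT genes, Akt2 rose and Akt1 did not pass. Akt2 read 9.28, 9.65 and 9.14 on WT-labelled arrays and 10.35, 11.19 and 10.09 on KO-labelled arrays, without overlap. Its change was 1.19 ± 0.31 (SE; adjusted p = 0.0468), from 9.36 ± 0.26 (SD, n = 3) to 10.54 ± 0.57 (SD, n = 3). With quantile normalization the adjusted p was 0.053, and centred on the housekeeping mean the change was 0.16. Akt1, the form most tied to growth, read 7.25, 7.27 and 7.13 on WT-labelled arrays and 7.45, 7.72 and 7.48 on KO-labelled arrays. These groups stood 0.18 apart. The change of 0.33 ± 0.12 (SE) did not pass (adjusted p = 0.086, 95% interval 0.03 to 0.64). Centred on the housekeeping mean, Akt1 stood at -0.70 and passed as lower (adjusted p = 0.0386).

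Foxo1, the transcription factor that AKT holds out of the nucleus, read 6.51, 6.54 and 6.48 on WT-labelled arrays, a range of 0.06 and all under the median probe set of their array. It read 7.58, 9.22 and 7.78 on KO-labelled arrays, all of them at least 1.04 higher. Its change was 1.68 ± 0.43 (SE; adjusted p = 0.0451). Centred on the housekeeping mean it was 0.65 and did not pass (adjusted p = 0.0813).

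In the last step of the pathway, from AS160 to the transporters, none of the 3 genes passed. Tbc1d4 read 6.77, 6.92 and 6.67 on WT-labelled and 6.98, 7.63 and 7.29 on KO-labelled arrays, a change of 0.51 ± 0.19 (SE; adjusted p = 0.0845, 95% interval 0.05 to 0.98). Only 0.06 separated the groups, and all WT-labelled values of Tbc1d4 lay under the median probe set of their array. Slc2a4 read 7.25, 7.12 and 7.16 on WT-labelled and 7.51, 8.37 and 7.50 on KO-labelled arrays. Its change was 0.62 ± 0.25 (SE; adjusted p = 0.106, 95% interval -0.004 to 1.24), and KO 1 and KO 3 stood together while KO 2 stood apart. Slc2a1 read 7.11, 7.13 and 7.03 on WT-labelled and 7.25, 7.46 and 7.14 on KO-labelled arrays. Its groups were 0.01 apart, and the change of 0.19 ± 0.13 (SE) did not pass (adjusted p = 0.246, 95% interval -0.11 to 0.50). Centred on the housekeeping mean the changes of Tbc1d4, Slc2a4 and Slc2a1 were -0.52, -0.41 and -0.84, and Slc2a1 passed as lower there (adjusted p = 0.0171).

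**Figure D2:**
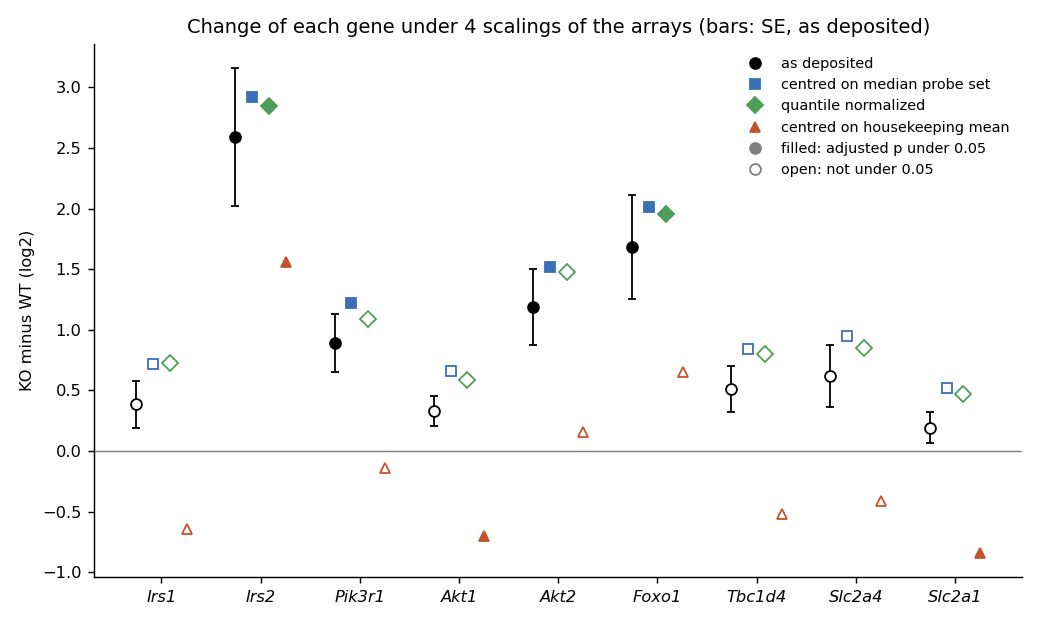
Change from WT-labelled to KO-labelled arrays (y axis, log2) of the 9 genes on the deposited values, with SE, and after 3 other scalings of the arrays; filled symbols have an adjusted p under 0.05 in limma. Irs2 is above 0 and filled under all 4 scalings, while 6 genes (Irs1, Pik3r1, Akt1, Tbc1d4, Slc2a4 and Slc2a1) fall below 0 when centred on the housekeeping mean.

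Since a shift equal for all genes of an array cancels in the difference of 2 of them, 6 pairs of related genes were compared within arrays. A shift that differs with signal level does not cancel, and the references above did not shift equally. In the WT-labelled mean the first gene was the brighter one in every pair but Foxo1 minus Foxo3. The part of signal level in the pair differences was not tested. In all 6 pairs the difference was larger on every KO-labelled array than on any WT-labelled array. With 3 arrays against 3 an exact 2-sided permutation test cannot go below p = 0.1, which each pair reached and which stayed 0.1 after adjustment over the 6 pairs, so none could pass. The order of the genes in a pair was set with earlier results known, so that the common sign is no separate evidence. Irs1 and Tbc1d1 lay under the median probe set on all 6 arrays and Foxo3 on 4 of them, and without detection calls a change of these partners cannot be told apart from background. Foxo1 and Tbc1d4 themselves lay under it on every WT-labelled array.

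Irs2 minus Irs1 was 3.24, 2.99 and 2.56 on WT-labelled and 5.06, 6.02 and 4.32 on KO-labelled arrays. The mean went from 2.93 ± 0.34 (SD, n = 3) to 5.13 ± 0.85 (SD, n = 3), an unequal change of 2.20. Akt2 minus Akt1 was 2.03, 2.38 and 2.01 on WT-labelled and 2.90, 3.47 and 2.61 on KO-labelled arrays, an unequal change of 0.85. Slc2a4 minus Slc2a1 was 0.14, -0.01 and 0.13 on WT-labelled and 0.26, 0.91 and 0.36 on KO-labelled arrays, an unequal change of 0.42. Both of these gaps between groups were narrower than that of the receptor substrates.

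The other partners lie outside the 10 genes. Foxo1 minus Foxo3, a second FOXO factor gene, was -0.02, -0.03 and -0.15 on WT-labelled and 0.86, 2.30 and 0.97 on KO-labelled arrays, an unequal change of 1.44. Pik3r1 minus Pik3r2, which encodes the regulatory subunit p85 beta, changed by 0.85. Tbc1d4 minus Tbc1d1, which encodes a related Rab GTPase-activating protein, changed by 0.52. The changes of the partners themselves were 0.24 for Foxo3, 0.04 for Pik3r2 and -0.01 for Tbc1d1, none of which passed (adjusted p = 0.131, 0.757 and 0.944).

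**Figure D3:**
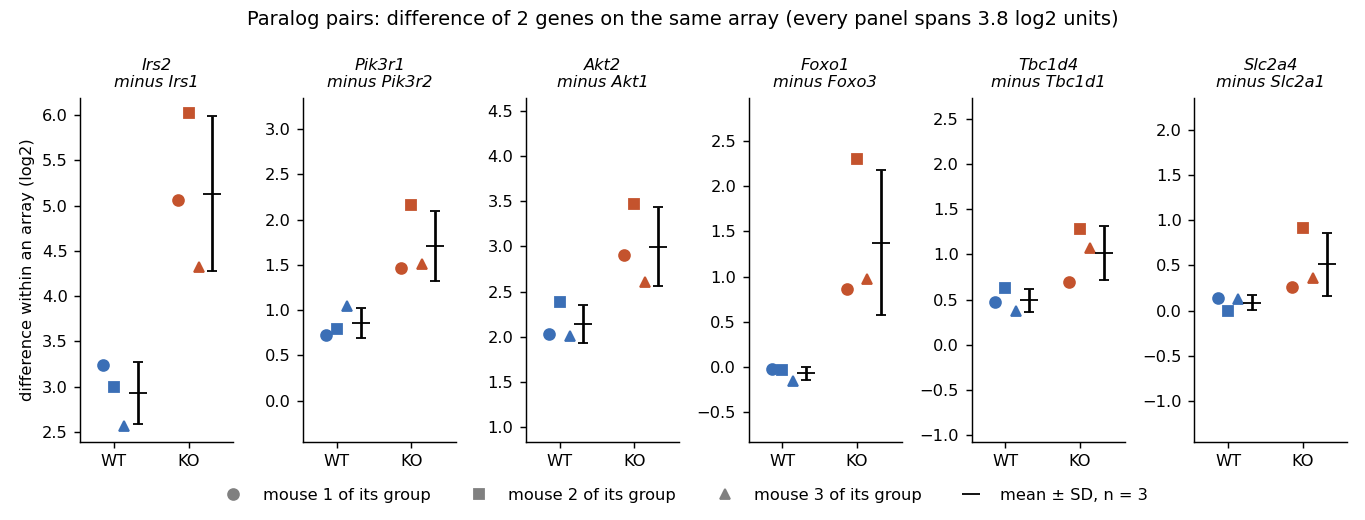
Difference of 2 related genes on the same array (y axis, log2) for 6 pairs, on 3 WT-labelled and 3 KO-labelled arrays, with the mean and SD and the same span on every y axis. Every KO-labelled value lies above every WT-labelled value in each pair, with unequal changes from 0.42 (Slc2a4 minus Slc2a1) to 2.20 (Irs2 minus Irs1).

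KO 2 was the highest of the 6 arrays for 9 of 9 genes. It stood 1.54 above the mean of KO 1 and KO 3 for Foxo1 and 0.97 above it for Akt2. Among the 9144 named genes with a change above 0, KO 2 was the highest KO-labelled array in 74.3%. Without KO 2, 4 of the 9 genes were still called higher, beside 3046 probe sets higher and 6921 lower of 65956 in that fit. The change of Irs2 fell from 6.02-fold to 3.91-fold and that of Foxo1 to 2.25-fold. Slc2a4 then stood at 1.26-fold. Without KO 3 or without any 1 of the WT-labelled arrays limma called 0 probe sets at all, so all 4 calls were lost there. At an unadjusted p under 0.05 there were 4 or 5 of the 9 genes in those fits and 21579 to 28697 probe sets.

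Markers of several cell types moved along with these genes. Of 10 measured adipocyte markers 8 rose and 0 fell, and the log2 of their summed signal lay from 14.61 to 18.01 under the WT label and from 18.89 to 19.75 under the KO label. Most of that sum was Fabp4, the fatty acid binding protein gene, which read 17.14, 17.96 and 14.45 and then 18.78, 19.57 and 18.78 and did not itself pass (adjusted p = 0.0769). Adipoq, the adiponectin gene, rose by 2.93 and Pparg, the adipogenic master regulator, by 3.66. The adipocyte sum was lowest on WT 3, at 14.61 against 17.19 on WT 1 and 18.01 on WT 2. Akt2 had the same order on these arrays, with 9.14 on WT 3, 9.28 on WT 1 and 9.65 on WT 2. Akt1, Foxo1, Tbc1d4 and Slc2a1 had that order too, Foxo1 within a range of 0.06 and Slc2a1 within 0.1. The share of all named genes with that order was not counted. Irs2 was also lowest on WT 3, at 8.21, but highest on WT 1, at 8.73. Slc2a4 read 7.16 on WT 3, between its other WT-labelled values. Pik3r1 and Irs1 went the other way and were highest on WT 3 among these arrays, at 8.01 and 5.65. Of 8 endothelial markers 7 rose and 0 fell, Cdh5 by 4.06 and Pecam1 by 2.38, with sums of 10.10 to 10.24 and 12.00 to 12.79. Of 7 macrophage markers 2 rose and 1 fell, and of 5 lymphocyte markers 0 rose and 3 fell. The part of these cell types in the changes of the 9 genes was not tested, and in whole tissue fewer cells of a type and less RNA per cell cannot be told apart. No marker was listed at 0, and the files hold no detection calls.

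Skeletal muscle, which also carries GLUT4 and AKT2, was checked separately. Of 11 muscle markers 0 passed in either direction, and their summed signal was 10.48 to 10.57 on WT-labelled arrays. It was 12.88 on KO 1, 14.98 on KO 2 and 10.46 on KO 3. Acta1, the skeletal actin gene, read 9.59, 11.79 and 7.80 there and Ckm, the muscle creatine kinase gene, 7.84, 9.66 and 6.51. On KO 3, where the muscle sum was at the WT-labelled level, 8 of the 9 genes read above every WT-labelled array. Slc2a1 did so by only 0.01. The share of all named genes that did so on KO 3 was not counted. On all 3 KO-labelled arrays together it was 18.5%, and 30.7% among the brighter ones. Slc2a4 read 7.50 on KO 3 and 7.51 on KO 1, and it was highest, at 8.37, on KO 2, where the muscle sum was highest too. The part of muscle RNA in these values was not tested.

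**Figure D4:**
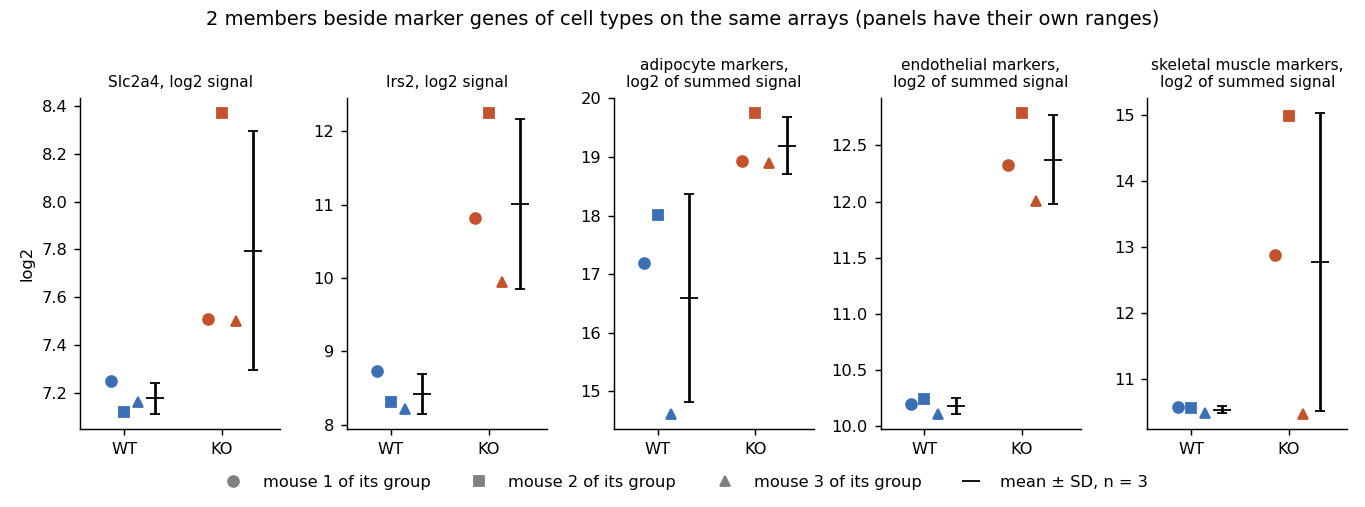
Log2 signal of Slc2a4 and Irs2 and the log2 of the summed signal of adipocyte (10 genes), endothelial (8 genes) and skeletal muscle (11 genes) markers, on each array, with the mean and SD; each panel has its own y range. KO 3 has a muscle sum of 10.46, level with the WT-labelled arrays, and a Slc2a4 signal of 7.50.

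The wider pathway was read from 8 lists by role. Of 123 listed genes 113 were measured, of which 26 rose and 4 fell, with a median change of 0.28 against -0.27 over all named genes. The counts of each list are to be read against the 8.91% of named genes called higher and the 13.0% called lower, and a list with 1 of 13 called is near that share. Among named genes at or above the level of the median probe set these shares were 15.9% and 14.4%. Of the 13 housekeeping genes 6 rose and 0 fell. After centring on the housekeeping mean 9 were called higher and 64 lower, so the balance of directions depends on the zero point.

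Of 13 measured receptor and adaptor genes 1 rose and 0 fell, with a median change of 0.16. Sh2b2, an adaptor of the insulin receptor in fat cells, rose by 0.50 ± 0.12 (SE; adjusted p = 0.0423). Igf1r, the receptor of insulin-like growth factor 1 and the planned pair partner of Insr, stood at 0.27 without passing (adjusted p = 0.155), and Cblb, a ubiquitin ligase gene, at 0.93 (adjusted p = 0.0502). Of 13 genes that restrain insulin signalling 1 rose and 0 fell, with a median of -0.01. Inppl1, which encodes the lipid phosphatase SHIP2, rose by 0.91 ± 0.20 (SE), from 7.70 to 8.61. Tns2, a tensin gene, stood at 1.29 and did not pass (adjusted p = 0.0517).

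Of 9 phosphoinositide 3-kinase genes 2 rose and 0 fell. Pik3ca, the catalytic subunit p110 alpha that partners the Pik3r1 product, rose by 0.78 ± 0.21 (SE), and Pik3c2a, a class II enzyme gene, by 0.88 ± 0.15 (SE). The changes of the leukocyte subunit genes Pik3cg and Pik3cd, which were picked with their values in view, were -0.40 and -0.23 (adjusted p = 0.0563 and 0.146). Of 13 genes around AKT, mTOR and GSK3 5 rose and 0 fell, and all 13 had a change above 0. So did 12 of the 13 housekeeping genes and 9144 of 30702 named genes. Pdpk1, whose kinase phosphorylates AKT, rose by 0.49, Mtor by 0.91 and Rictor, of the mTOR complex that phosphorylates AKT, by 0.56. Eif4ebp1, a translation repressor under mTOR, rose by 1.12.

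Of 18 FOXO factor and target genes 5 rose and 2 fell, with a median of 0.45, and the 2 that fell are near the 13.0% called lower among all named genes. Pdk4, whose product inhibits the pyruvate dehydrogenase complex, read 12.21, 11.59 and 9.28 on WT-labelled and 16.14, 18.27 and 16.47 on KO-labelled arrays. Cat, the catalase gene, rose by 4.42 and Pck1, of glyceroneogenesis, by 3.93. Igfbp1 and G6pc, FOXO targets best known from liver, fell by 0.68 and 0.79 on the log2 scale, G6pc being named after its values were seen, and neither was called lower with quantile normalization or centring on the median probe set. Igfbp1 read 6.94, 6.90 and 6.81 on WT-labelled and 6.31, 6.10 and 6.21 on KO-labelled arrays. Both Igfbp1 and G6pc lay under the median probe set on all 6 arrays.

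Of 24 genes of GLUT4 vesicle traffic 8 rose and 0 fell, with a median of 0.49. Rab10, the Rab GTPase on which AS160 acts in fat cells, read 9.58, 9.77 and 9.43 on WT-labelled and 11.74, 12.89 and 12.05 on KO-labelled arrays, a change of 2.63 ± 0.31 (SE; adjusted p = 0.0354). Cav1, the caveolin-1 gene of fat cell and endothelial caveolae, rose by 3.12. Rac1, a GTPase gene of actin remodelling, rose by 1.04 and Rab14, another Rab GTPase gene, by 0.73. The changes of Stx4a and Aspscr1, which encode the plasma membrane syntaxin and the TUG tether of GLUT4 vesicles, were 0.07 and 0.06 (adjusted p = 0.617 and 0.667; both named after their values were seen).

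Of 13 genes of other transporters and hexokinases 0 rose and 2 fell, which is near the 13.0% called lower among all named genes, and their median change of -0.31 was close to the -0.27 of all named genes. Slc2a2, the GLUT2 gene of liver and pancreatic islets, fell by 0.66 on the log2 scale, and Slc5a1, the sodium-coupled glucose transporter gene of the gut, by 0.62. Slc5a1 lay under the median probe set on all 6 arrays, and Slc2a2 did so on KO 2 and KO 3. Of 9 measured Slc2a genes beside Slc2a4 and Slc2a1, 7 had a change under 0, where 9144 of 30702 named genes had one above 0. Their median change was -0.36, against 0.62 for Slc2a4 and 0.19 for Slc2a1. With quantile normalization or centring on the median probe set 0 genes of the 8 lists fell, so these falls depend on the scaling.

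Of 11 genes known to act on Slc2a4 transcription or on glucose uptake 4 rose and 0 fell. Txnip, an arrestin gene that restrains glucose uptake, read 14.41, 14.30 and 12.43 on WT-labelled and 17.34, 18.14 and 16.86 on KO-labelled arrays. Mef2a, a factor that binds the Slc2a4 promoter, rose by 1.53 ± 0.35 (SE), and Mlxip, a glucose-sensing factor gene, from 7.49 ± 0.18 (SD, n = 3) to 8.49 ± 0.33 (SD, n = 3). Mlxipl, which encodes ChREBP, stood at 0.97 and did not pass (adjusted p = 0.0558; named after its value was seen).

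**Figure D5:**
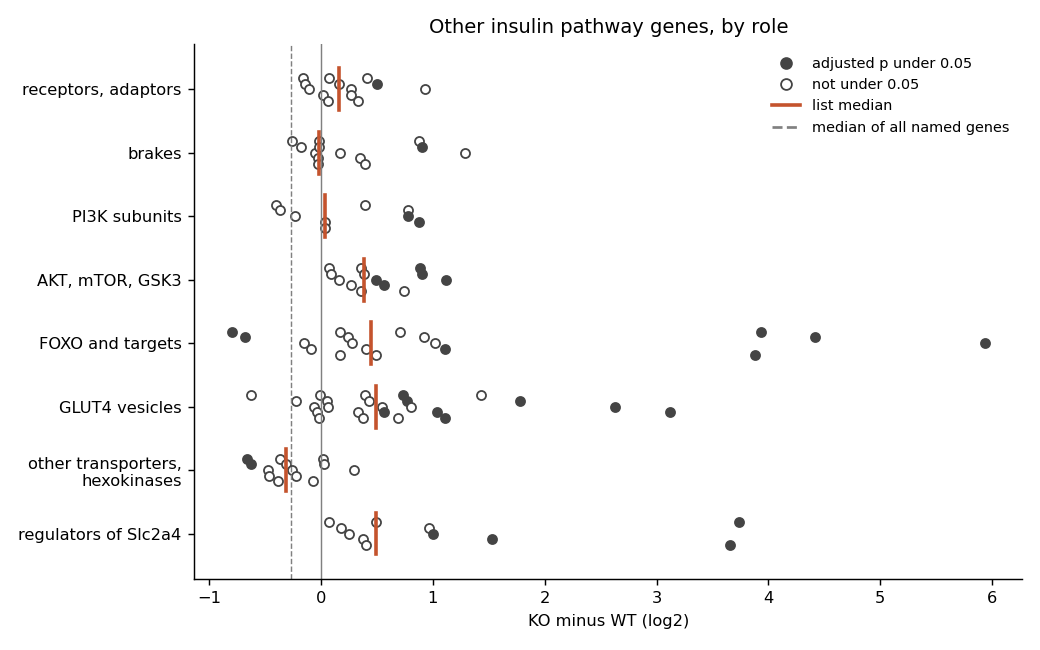
Change from WT-labelled to KO-labelled arrays (x axis, log2) of each measured gene of the 8 pathway lists, on the deposited values; filled points have an adjusted p under 0.05 in limma, the red bar is the list median and the dashed line the median of all named genes at -0.27. The vesicle traffic list has 8 filled points on the right, and the list of other transporters and hexokinases has 2 on the left, which are lost with quantile normalization.

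Genes with numbered Gm names or Rik names and the members were left out of the search for profiles like that of Slc2a4. The nearest over the 6 arrays, each centred on its own mean, were Mier3, Tacc2, Ppil2, Sema6a and Ankrd11. Their root mean square distances were 0.038, 0.045, 0.048, 0.049 and 0.049 log2 units. These genes were chosen by their likeness to Slc2a4 on the same arrays, so their peak on KO 2 is no separate result. None of them passed (adjusted p from 0.0743 to 0.11), as Slc2a4 did not.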

How the data were processed

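Each deposited value is a log2 signal per probe set and array. Per the labels' protocols, a GeneChip WT Pico kit added biotin to the RNA, and Transcriptome Analysis Console is named in the submitters' processing notes. The sources used here do not give the background correction, normalization, summary method or genome build. The authors deposited values from 2.81 to 19.93, with 222 probe sets at the upper limit on every array.

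Symbols came from GEO's platform annotation, updated through RefSeq. It paired 31258 of 65956 probe sets with 1 symbol, 1492 with several and 33206 with none. A gene with several probe sets was read from the one with the highest mean.

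limma 3.58.1 in R 4.3.3 compared KO-labelled with WT-labelled arrays over all probe sets (lmFit, eBayes, Benjamini-Hochberg adjustment, call at an adjusted p under 0.05), with genotype as the only term. Intervals are 95% intervals from that fit. The code was tested on simulated arrays. Pairs were compared by exact permutation. Python 3.11.15, pandas 2.3.3 and matplotlib 3.10.9 prepared tables and plots. The 10 genes, the 8 lists, the pairs and the marker lists were chosen with earlier results of these data known. The named genes were the 10 members, Tfg, the pair partners, the called genes of each list (up to 4 with the smallest p, or the 2 with the smallest p where fewer than 2 were called), the 5 genes nearest in profile to Slc2a4, and the markers Adipoq, Pparg, Acta1, Ckm, Cdh5 and Pecam1. The labels call the mice biological replicates, and the number of arrays limits the precision. Markers of red cells, nerve, epithelium, progenitors and mural cells were also counted: of 3, 2, 4, 5 and 6 measured genes, 0, 0, 0, 1 and 2 rose and 1, 0, 0, 0 and 0 fell.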

Additional observations from a re-analysis of the deposited data

How the results depend on the processing

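The 6 pair differences kept their sign under quantile normalization. Leaving out a single array could not turn the sign, since every KO-labelled difference lay above every WT-labelled one. Across the fits that left out 1 array the changes ranged from 1.97 to 3.12 for Irs2, 0.64 to 1.03 for Pik3r1, 0.86 to 1.41 for Akt2, 1.17 to 1.99 for Foxo1 and 0.35 to 0.67 for Tbc1d4, which passed without KO 1. The calls ranged from 0 to 4 member genes, from 0 to 26 pathway genes higher and 0 to 5 lower, and from 0 to 3469 probe sets higher and 0 to 10697 lower. The 0 counts came without WT 1, WT 2, WT 3 or KO 3. Centred on the housekeeping mean, changes were -0.64 for Irs1, -0.14 for Pik3r1, -0.70 for Akt1, 0.16 for Akt2, 0.65 for Foxo1, -0.52 for Tbc1d4, -0.41 for Slc2a4 and -0.84 for Slc2a1, with 1 member higher and 2 lower, 9 pathway genes higher and 64 lower, and 939 probe sets higher and 58808 lower. That scaling put the median change of probe sets at -1.40, against -0.37 as deposited and -0.04 after quantile normalization or centring on the median probe set. With quantile normalization Pik3r1 (1.09) and Akt2 (1.48) no longer passed, which left 2 members called, 0 pathway genes lower and 2212 probe sets lower. With centring on the median probe set all 4 member calls were kept. There 42 pathway genes were higher and 0 lower, and 3259 probe sets were lower. Higher calls made up 25.4% of calls as deposited, 64.6% and 61.2% under these last scalings and 1.57% on the housekeeping mean. Array weights gave 40 pathway genes higher and 8 lower and 17432 probe sets lower. Without dim probe sets (mean under 6.83), which dropped Irs1, 1 pathway gene was lower. At an adjusted p under 0.1 there were 46 pathway genes higher and 12 lower, 6 members, and 5902 and 24774 probe sets. Same-numbered arrays of the 2 groups deviated together at correlations of 0.00153, 0.205 and 0.139, so the numbers were not taken to pair the mice. With the replicate block Pik3r1 (0.89) no longer passed (adjusted p = 0.0624), and 3 members and 21 pathway genes were higher and 2 lower. The mean pair differences cannot change with that block, because both groups hold the same replicate numbers. The cause of these shifts was not tested. The fits for the pathway lists were chosen after seeing the data. Each member had 1 probe set, so averaging probe sets changed none of them. The signal over background is unknown.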
